A study of Homo sapiens with 18 samples.

Results

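The comparison set a pair of base editors that share a nickase and a guide against each other, in cells where the guide had no gene to edit. Both editors were built on nSpCas9, the nickase form of Streptococcus pyogenes Cas9. SpABE carried the adenine deaminase ABE8e and SpCBE the cytosine deaminase evoCDA1, and each plasmid also encoded the same guide against an intergenic site. The comparison used 6 of the 18 libraries of the series, chosen by their labels as 3 SpABE and 3 SpCBE intergenic controls, and ran across 17743 tested genes of 58870 in the table. In all groups, 750000 HEK293T cells, a human embryonic kidney line, were transfected with 1 plasmid and selected with puromycin for 48 hours, and polyadenylated RNA was taken 72 hours after transfection. No untransfected group was analysed here, so each value below is a difference between the editors and not a response to either. All libraries came from 1 cell line, and the labels do not state that replicates were separate cultures. Each p-value therefore reflects the spread of these libraries alone, and that spread could be technical. In bulk RNA, fewer cells with a message and less of it per cell cannot be told apart.

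The adenine deaminase turns adenine into inosine, which is read as guanine, and the cytosine deaminase turns cytosine into uracil, which is read as thymine and is the substrate of uracil DNA glycosylase. Cells that take up plasmid DNA and make large amounts of a foreign protein can induce 2 well known programs. Misfolded protein releases the transcription factor HSF1, which drives chaperone genes, and foreign nucleic acid is detected by sensors that lead to interferon and to interferon-stimulated genes.

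The guide is shown because both editors carried it and because its bases differ in which editor could act on them. It matched 1 place in hg38 without a mismatch, chr13:102967577-102967596 on the + strand, followed by TGG, in a stretch where GENCODE 44 lists no gene. Counted from the 5′ end, it holds 5 A, at positions 4, 9, 11, 13 and 14, and 6 C, at positions 5, 8, 10, 12, 15 and 20. The first line has the A in capitals, the second the C, and the third the site with 30 bases on each side and the guide match in capitals.
Guide with A marked: ttgActgcAcAcAActgggc
Guide with C marked: ttgaCtgCaCaCaaCtgggC
Site in hg38, chr13:102967547-102967626: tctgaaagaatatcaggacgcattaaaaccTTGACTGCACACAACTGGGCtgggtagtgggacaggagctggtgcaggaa

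The nearest tested gene was ERCC5, an endonuclease of nucleotide excision repair, 91582 bases away, with a log2 fold change of -0.16 (edgeR adjusted p = 0.00769). BIVM (0.18) and TPP2 (-0.11) also passed the adjusted p by small amounts, TEX30 (-0.15) and KDELC1 (0.03) did not, and none of the tested genes within 1 Mb of the site was called. The readthrough gene BIVM-ERCC5 was too poorly measured to compare (-1.16 ± 1.09, SE). No other place in hg38 matched the guide with 1 or 2 mismatches and an NGG motif, and 6 places did with 3. The 1 such place in an exon lay in HOXB8, a homeobox gene, whose log2 fold change was 0.02 (edgeR adjusted p = 0.861). Reads of the edited DNA were not used here, so editing at these places was not measured.

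The libraries held between 31680000 and 40690000 estimated counts, of which the 10 leading genes made up 4.64% ± 0.05 with SpABE and 3.87% ± 0.02 with SpCBE (SD, n = 3). Messages of the mitochondrial genome took 1.03% and 1.06%. Markers of the line were present in all 6 libraries, VIM at 701 to 791 CPM (counts brought to a common library size by TMM scaling), SALL1 at 39.6 to 43.3 CPM and NEFM at 76.1 to 83.4 CPM, while PAX2 was low at 1.23 to 2.47 CPM. PTPRC, which defines blood cells, and SERPINA1, a liver marker, were at 0 in all 6 libraries, and COL1A2, KRT5, KRT14 and ALB did not exceed 0.139 CPM. Other listed markers of those types were expressed in both groups, among them COL6A1 at 75.4 to 91.5 CPM, COL1A1 at 18.9 to 21.6 CPM, KRT18 at 63.4 to 69.7 CPM, KRT8 at 18.5 to 25.4 CPM and CDH1 at 5.96 to 6.8 CPM.

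A gene was called when its adjusted p (quasi-likelihood test of edgeR, Benjamini-Hochberg over all tested genes) was under 0.05 and its absolute log2 fold change was over 0.5. All fold changes are SpABE minus SpCBE, so a positive value means a higher level with the adenine editor. By this rule 1098 genes were called, 6.19% of those tested, with 472 higher (2.66%) and 626 lower (3.53%) with SpABE. On the adjusted p alone, 6294 genes passed (35.5%), 3143 higher (17.7%) and 3151 lower (17.8%). The median log2 fold change over all tested genes was -0.003 and the median size 0.15. Of the 6294 genes that passed, only the 1098 called had an absolute log2 fold change over 0.5, so most were under that threshold. The 3 SpABE libraries did not overlap the 3 SpCBE libraries in 8115 genes (45.7%), among them 1063 of the 1098 called genes. More than 2-fold differences were found in 201 genes higher and 155 lower, and more than 8-fold in 13 and 11.

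Most called genes were weakly expressed. A mean under 5 CPM was found in 78.4% of the genes called higher and 71.9% of those called lower, against 35.5% of all tested genes. The genes higher with SpABE were also shorter and more often non-coding. Their median spliced length was 1947 bases against 2888 for all tested genes, 31.2% had a single exon against 10.3%, and 27.3% were long non-coding RNAs against 11.7%. The genes lower with SpABE were mostly protein coding, 89.4% against 81% of all, with a median of 9 exons against 7 and a median GC content of 52.8% against 48.9%. The part of gene length, GC content and level in the calls was not tested.

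**Figure D1:**
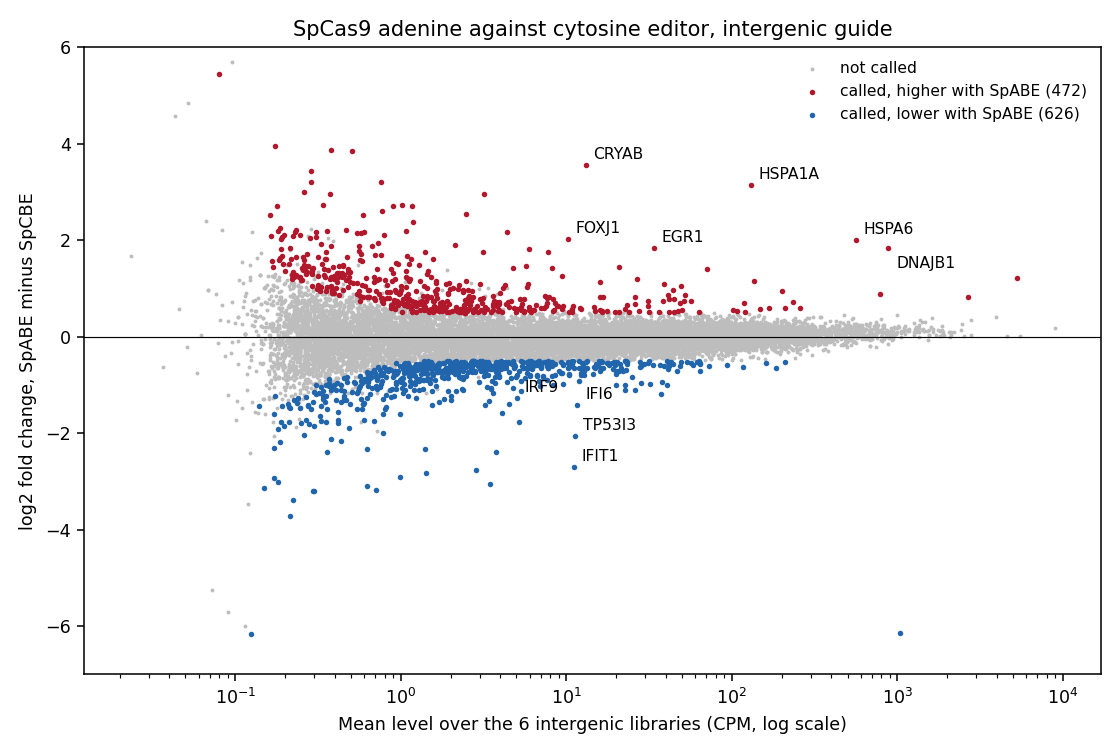
Each point is 1 tested gene in the intergenic comparison, with the mean level over the 6 libraries in CPM on a log axis and the log2 fold change (SpABE minus SpCBE) on the vertical axis. Red and blue points are the 472 genes called higher and the 626 called lower with SpABE, and named points such as HSPA6 and DNAJB1 stand far above other genes of their level.

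The listed heat-shock targets of HSF1 were higher with the adenine editor throughout. All 25 listed targets of HSF1 were tested, all 25 passed the adjusted p in the higher direction where 17.7% of all genes did, and 11 were called, against 2.66%. Their median log2 fold change was 0.42, beside -0.003 over all tested genes, and all 25 had no overlap between the groups, as did 45.7% of all tested genes. Added over the list, they took 30080 to 30590 CPM with SpABE and 18650 to 18780 CPM with SpCBE.

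Among the HSP70 chaperones, HSPA6 (chromosome 1, 161524540 to 161526894), a strictly stress-induced member, stood at 877, 896 and 915 CPM in the SpABE libraries and 217, 229 and 224 CPM in the SpCBE libraries. The groups were far apart, with a log2 fold change of 2.01 ± 0.03 (SE, adjusted p = 4.87e-24). HSPA7, a near-identical copy of HSPA6, was at 5.9 to 7.8 CPM against 1.2 to 2.0 CPM, and how reads were divided between such copies is not given in the sources used here. The same holds for HSPA1A and HSPA1B, neighbouring genes for the inducible HSP70 protein, so their sum is the safer value. The sum was 7520, 7721 and 7512 CPM with SpABE and 3341, 3152 and 3035 CPM with SpCBE. It was thus 2.39-fold higher, 7584 ± 118 against 3176 ± 154 CPM (SD, n = 3 each), with no overlap and an exact permutation p of 0.1, two-sided, the smallest that 3 against 3 allows. HSPA8, the constitutive HSP70, differed by less, 0.35 ± 0.03 (adjusted p = 1.91e-10).

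Among the partners of HSP70, DNAJB1 (chromosome 19, 14514769 to 14560391), a J-domain co-chaperone, was at 1380, 1366 and 1380 CPM against 388, 382 and 389 CPM. Its log2 fold change was 1.83 ± 0.03 (adjusted p = 8.09e-25). HSPH1, a nucleotide exchange factor, was higher by 0.88, and BAG3, which links HSP70 to autophagy, by 0.95. The HSP90 pair differed unequally, HSP90AB1 at 3428 against 1949 CPM (0.81) and HSP90AA1 by 0.42.

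The small heat-shock proteins, which hold unfolded proteins in solution, moved in both directions. Of 5 tested, 3 were higher and 2 lower, where 17.7% and 17.8% of all tested genes were. CRYAB (chromosome 11, 111908564 to 111923722) was at 24.0, 24.7 and 23.7 CPM with SpABE and 1.53, 2.37 and 2.16 CPM with SpCBE, a log2 fold change of 3.57 ± 0.09 (adjusted p = 5.86e-19). HSPB1 followed at 183, 186 and 198 CPM against 84.5, 85.1 and 85.3 CPM, 1.15 ± 0.04. HSPB8 went the other way, 7.06, 7.88 and 8.56 CPM against 10.0, 9.96 and 9.45 CPM, -0.33 ± 0.08 (adjusted p = 0.00209). None of these groups overlapped. HSF1 itself did not pass the test, with 78.4, 82.7 and 87.6 CPM against 87.6, 85.3 and 85.1 CPM, groups that overlap (adjusted p = 0.292).

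The libraries of SaABE, which carries ABE8e on another nickase with its own intergenic guide, are given for scale and were not tested here. Their CRYAB level was 96.2 ± 5.1 CPM, HSPA6 3564 ± 27 CPM and DNAJB1 2562 ± 50 CPM (SD, n = 3). All of these lie above both SpCas9 editors.

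The heat-shock element, the site HSF1 binds, was searched on both strands as GAANNTTCNNGAA in RefSeq promoters of GRCh38.p14, from 250 bases before to 50 after a start. It was found in 9 of the 23 listed genes with a promoter in the table (39.1%), against 0.608% of all 27305 genes with one. The list was chosen as targets of HSF1, so this share describes the list and is not a result of these data. Only 45.1% of the genes called higher had a promoter in the table, too few to describe them by the motif. The stretches of HSPA6 and HSP90AB1, both called higher, are shown because they hold the motif in the reverse orientation, in capitals.
HSPA6, chr1:161524436-161524508, + strand: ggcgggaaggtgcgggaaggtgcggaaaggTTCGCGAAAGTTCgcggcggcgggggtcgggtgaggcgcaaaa
HSP90AB1, chr6:44247748-44247873, + strand: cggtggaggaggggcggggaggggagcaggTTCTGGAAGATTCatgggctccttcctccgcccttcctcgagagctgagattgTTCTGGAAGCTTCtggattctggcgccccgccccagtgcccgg

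**Figure D2:**
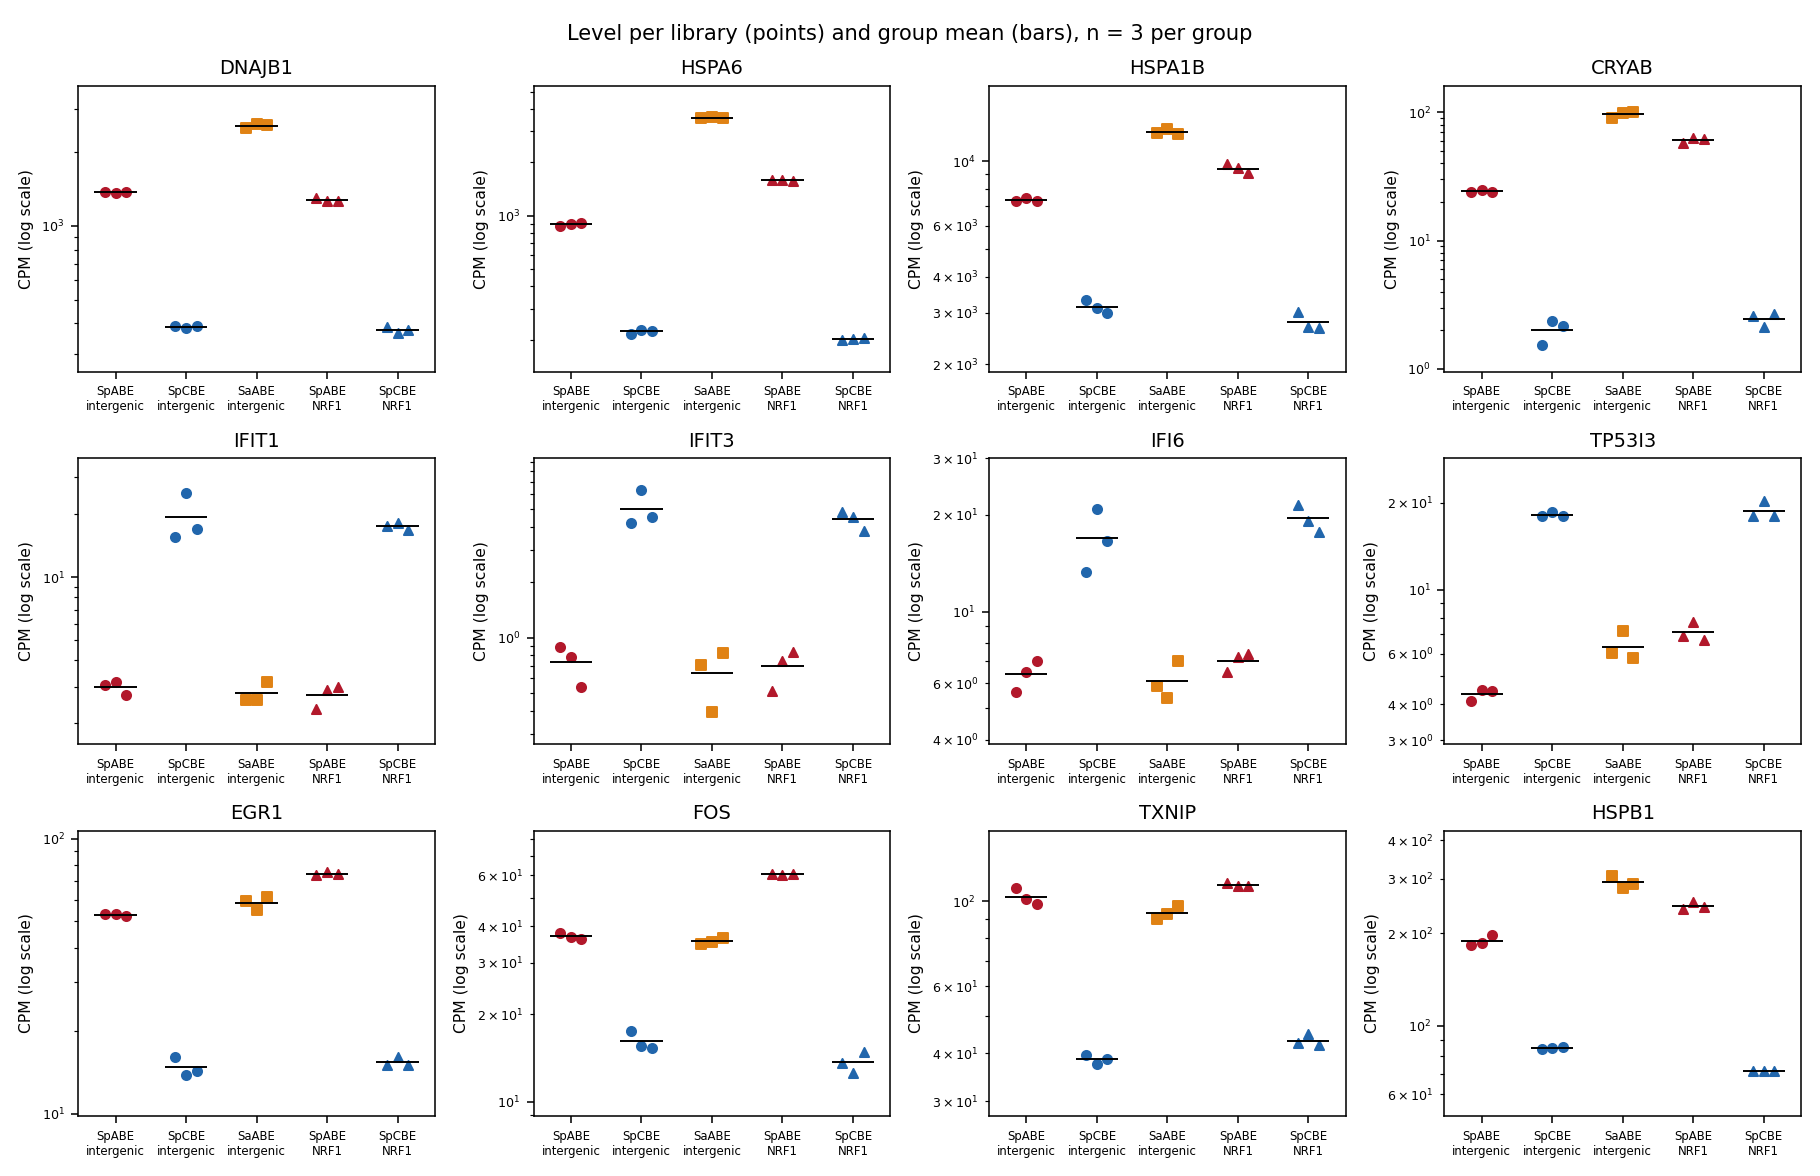
Levels of 12 genes in CPM on log axes, 1 point per library and a bar at the mean of each group (n = 3), with the SaABE intergenic and NRF1-guide libraries for scale. In the SpABE and SpCBE intergenic columns no gene overlaps, with heat-shock genes, EGR1, FOS and TXNIP higher with SpABE and IFIT1, IFIT3, IFI6 and TP53I3 higher with SpCBE.

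Interferon-stimulated genes were higher with the cytosine editor. Of the 30 listed genes, 26 were tested. None passed the test as higher with SpABE and 23 passed as lower, where 17.8% of all tested genes did, and 18 were called lower, against 3.53%. Their median log2 fold change was -1.41, and 24 of the 26 had no overlap between the groups, as did 45.7% of all tested genes. Levels were low in both groups, and the summed list held 178.6 to 182.9 CPM with SpABE and 249 to 311 CPM with SpCBE.

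The IFIT family, whose proteins bind foreign RNA, was clearly separated. IFIT1 (chromosome 10, 89392546 to 89406487) was at 3.04, 3.17 and 2.75 CPM with SpABE and 15.6, 25.3 and 17.0 CPM with SpCBE, a log2 fold change of -2.70 ± 0.15 (adjusted p = 1.76e-12). IFIT2 was at 0.75, 0.99 and 0.45 CPM against 5.27, 7.59 and 5.58 CPM, and IFIT3 at 0.89, 0.79 and 0.54 CPM against 4.16, 6.29 and 4.51 CPM. IFI6 was at 5.63, 6.49 and 7.03 CPM against 13.3, 20.9 and 16.6 CPM (-1.41 ± 0.13, adjusted p = 6.32e-09). The second SpCBE library was the highest for each of these genes, and without it the IFIT1 value was -2.44 and the median of the list -1.21.

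Other effectors were lower with SpABE as well. OAS3, which makes the activator of RNase L, had a log2 fold change of -2.39, and ISG15, a ubiquitin-like modifier, of -1.39. HELZ2 stood at 16.9, 15.2 and 17.5 CPM against 35.6, 37.8 and 32.6 CPM (-1.10), and SAMD9, an antiviral factor, at 2.30, 2.04 and 2.72 CPM against 7.49, 9.63 and 6.76 CPM (-1.77). CXCL10, OAS2, RSAD2 and IFI44 were at or under 3 counts per SpABE library, the floor used for a fold, and were at least 6.42-fold, 4.83-fold, 4.92-fold and 3.28-fold lower. With these 4 genes at that bound, the median of the list was again -1.41.

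Of the factors that carry the interferon signal, IRF9 was at 2.84, 3.64 and 2.41 CPM against 7.02, 7.64 and 6.70 CPM (-1.26 ± 0.19, adjusted p = 1.48e-05) and IRF7 differed by -0.80. STAT2 (-0.11), IRF1 (-0.16) and IFI27 (0.24) were the listed genes that did not pass. Of 13 tested genes of nucleic-acid sensing, 1 was higher and 4 lower with SpABE, where 17.7% and 17.8% of all tested genes were. Among the lower were the RNA sensors DDX58, at 5.77, 5.99 and 4.96 CPM against 9.99, 13.1 and 10.1 CPM (-0.99), and IFIH1 (-0.95). The DNA sensor CGAS was the 1 higher, at low levels of 1.46, 1.44 and 1.28 CPM against 0.56, 0.92 and 0.82 CPM (0.85 ± 0.22, adjusted p = 0.00379). In the SaABE intergenic libraries IFIT1 was at 2.78 CPM on average and IFI6 at 6.10 CPM, near the SpABE levels.

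The interferon-stimulated response element was searched as GAAANNGAAA on both strands of the same promoter windows. Only 18 of the 26 tested genes had a promoter in the table (69.2%), too few to describe the list by the motif. It was present in 4.38% of all genes with a promoter. Stretches of 3 called genes are shown with the motif in capitals, in the reverse orientation for IFIT1. In ISG15 a pair of matches overlaps.
IFIT1, chr10:89392477-89392559, + strand: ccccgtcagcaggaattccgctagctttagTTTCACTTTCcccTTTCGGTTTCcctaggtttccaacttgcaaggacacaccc
IFI6, chr1:27672246-27672378, - strand: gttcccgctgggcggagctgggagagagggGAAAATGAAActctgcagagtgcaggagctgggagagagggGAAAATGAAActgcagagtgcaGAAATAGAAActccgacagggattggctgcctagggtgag
ISG15, chr1:1013354-1013429, + strand: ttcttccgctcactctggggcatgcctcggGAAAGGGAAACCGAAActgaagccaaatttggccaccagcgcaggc

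Genes of DNA repair were compared because deaminated bases are repair substrates. Of 25 tested Fanconi and homologous recombination genes, 4 were higher (16%) and 5 lower (20%) on the adjusted p. These shares were near the 17.7% and 17.8% of all tested genes. BRCA1, a central factor of homologous recombination, had a log2 fold change of -0.01 (adjusted p = 0.877). In base excision repair, 6 of 22 genes were higher (27.3%) and 3 lower (13.6%), and none was called. UNG, the uracil DNA glycosylase, was at 144, 149 and 155 CPM with SpABE and 117, 121 and 121 CPM with SpCBE, without overlap (0.32 ± 0.03, adjusted p = 1.72e-08). APEX1, the endonuclease that acts after a glycosylase, was higher by 0.33, and FEN1, of the same list, was lower (-0.17). In mismatch repair, 3 of 10 tested genes were higher (30%) and 2 lower (20%), against 17.7% and 17.8% of all tested genes. None of them was called. PMS2 was higher by 0.40 and RFC1 was lower (-0.15).

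The cell's own deaminases were compared because each editor brings one. Of 19 tested, 2 were higher (10.5%) and 5 lower (26.3%) with SpABE, not far from the 17.7% and 17.8% of all tested genes, and 4 were called lower, where 3.53% of all were. APOBEC3C, a cytosine deaminase that restricts retroelements, was at 34.7, 32.9 and 32.4 CPM against 49.5, 53.8 and 47.9 CPM (-0.60 ± 0.05, adjusted p = 1.47e-09). APOBEC3B was at 2.58, 2.59 and 2.52 CPM against 3.77, 3.83 and 4.27 CPM (-0.62). APOBEC3H and CDA, also called, were under 1 CPM in both groups. ADAR, which edits adenine in RNA, was at 342 to 353 CPM against 349 to 381 CPM and did not pass (-0.07, adjusted p = 0.0764).

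Immediate-early genes, which growth and stress signals switch on within minutes, were split. Of 31 tested, 11 were higher and 7 lower, against 17.7% and 17.8% of all tested genes, and 4 were called higher and 1 lower. EGR1, a zinc-finger factor (chromosome 5, 138465479 to 138469303), was at 53.2, 53.2 and 52.5 CPM against 16.1, 13.8 and 14.2 CPM (1.85 ± 0.06, adjusted p = 8.47e-18). FOS, a subunit of AP-1, was at 37.9, 36.9 and 36.3 CPM against 17.6, 15.6 and 15.3 CPM (1.20 ± 0.05). MYC (0.52) and IER5 (0.56) exceeded the fold threshold narrowly, and DUSP1 did not differ past the test (-0.01, adjusted p = 0.841). SPRY4, an inhibitor of growth factor signalling, was the member called lower (-0.87). The CArG box, the site of serum response factor, is held by 3 of the 23 immediate-early genes with a promoter in the table. Of all genes with a promoter, 1.60% hold it. EGR2 (0.27) and SRF (0.04) hold the box and were not called. The EGR1 promoter holds it in a pair of places, capitals in the line below. A part of serum response factor in these differences was not tested.
EGR1, chr5:138465344-138465435, + strand: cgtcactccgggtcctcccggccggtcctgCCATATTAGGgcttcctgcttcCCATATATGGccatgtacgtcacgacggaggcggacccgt

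Targets of p53 were mostly lower with the adenine editor. Of 26 tested, 18 were lower and 1 higher, where 17.8% and 17.7% of all tested genes were. Their median log2 fold change was -0.19, but only TP53I3 and SPATA18 were called. TP53I3, a quinone oxidoreductase, was at 4.10, 4.50 and 4.45 CPM against 17.98, 18.64 and 18.04 CPM (-2.06 ± 0.08, adjusted p = 4.23e-15), and SPATA18, a mitochondrial quality factor, differed by -0.63. PPM1D, a phosphatase that turns p53 down, was at 115, 109 and 105 CPM against 151, 147 and 145 CPM (-0.43). The best known targets differed less, MDM2 with -0.11 (adjusted p = 0.0250) and CDKN1A, which did not pass, with -0.07 (adjusted p = 0.138).

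The integrated stress response gave counts in both directions, 10 of 22 higher (45.5%) and 6 lower (27.3%), with a median of 0.05. Over all tested genes, 17.7% were higher and 17.8% lower. With the fold threshold, 2 of the 22 were called higher and none lower, against 2.66% and 3.53% of all tested genes. The log2 fold changes of the list ran from -0.48 to 1.88. CTH, which makes cysteine, was at 64.1, 65.2 and 63.0 CPM against 38.8, 37.6 and 38.2 CPM (0.75 ± 0.04), while TRIB3, a pseudokinase of the same response, was lower (-0.25). In the unfolded protein response of the endoplasmic reticulum, 4 of 22 genes were higher (18.2%) and 7 lower (31.8%), and none was called.

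Several large gene groups shifted by small amounts in 1 direction. On the adjusted p, 17.7% of all tested genes were higher and 17.8% lower. Of 79 cytosolic ribosomal protein genes, 60 were higher and none lower, with a median of 0.11 and none called. The SR proteins and hnRNPs, which choose splice sites, gave 22 of 27 higher and none lower, with a median of 0.21, HNRNPA1 at 1810, 1888 and 1819 CPM against 1383, 1430 and 1427 CPM. TRA2B, another splicing activator, was higher by 0.38. The host genes of small nucleolar RNAs gave 15 of 21 higher and none lower, led by SNHG1 at 212, 200.8 and 195 CPM against 141, 128 and 131 CPM (0.60 ± 0.03). For scale, the median size of the difference over all tested genes was 0.15. The scaling sets where 0 lies. Neither of the other scalings tried moved the median of all genes by as much as 0.01. Each of them also sets 0 by the bulk of genes, so this cannot show whether 0 is rightly placed for such small shifts.

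Genes of the G1/S transition are needed to enter and copy DNA in S phase. Of 35 tested, 23 were higher (65.7%) and 4 lower (11.4%), with a median of 0.15, and 1 was called, lower. MCM5, a subunit of the replicative helicase, was at 268, 293 and 289 CPM against 227, 229 and 226 CPM (0.32). Genes of G2/M gave 8 of 32 higher (25%) and 5 lower (15.6%), not far from the 17.7% and 17.8% of all tested genes. Replication-dependent histone genes gave 17 of 44 higher and 1 lower, where 17.7% and 17.8% of all tested genes were, and 13 called higher, against 2.66%. HIST2H2BF was at 8.01, 8.87 and 7.08 CPM against 3.66, 3.62 and 3.93 CPM (1.10). Most histone messages lack a poly(A) tail and many are near-identical copies, so these levels cover only the polyadenylated part.

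Autophagy and lysosome genes went the other way, 20 of 27 lower and 1 higher, with a median of -0.15. Over all tested genes, 17.8% were lower and 17.7% higher. NPC2, which moves cholesterol out of lysosomes, was at 48.0, 48.2 and 50.6 CPM against 63.9, 68.3 and 67.3 CPM (-0.44), and SQSTM1, an autophagy receptor, at 312, 315 and 330 CPM against 387, 391 and 388 CPM (-0.29). Synthesis and uptake of cholesterol gave 14 of 23 higher and 2 lower, and amino acid and one-carbon genes 14 of 20 higher and 2 lower, with none called in either list.

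**Figure D3:**
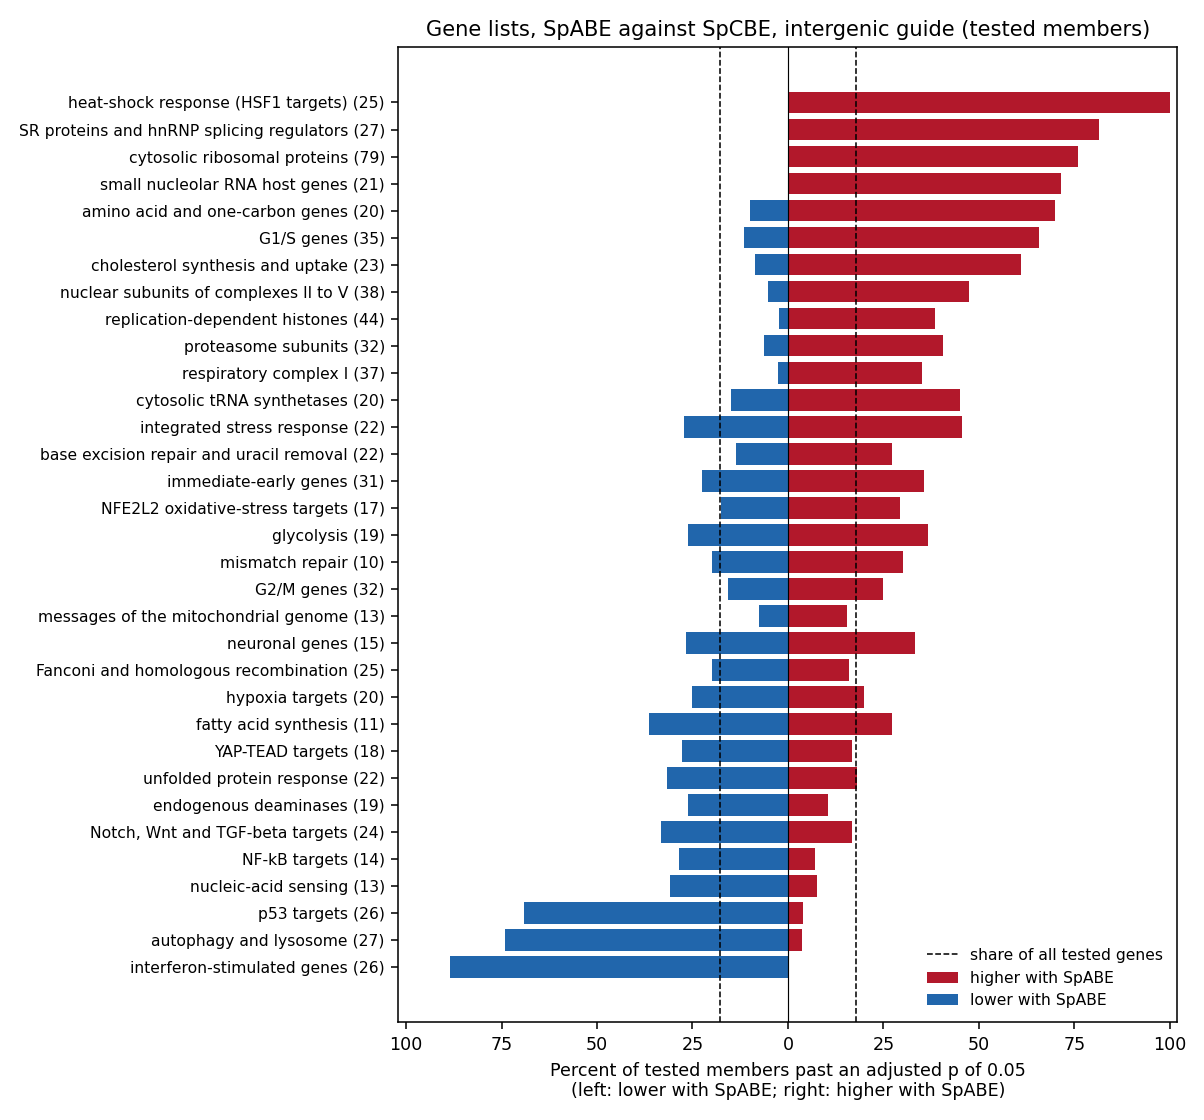
Bars give the percent of each list's tested members (number in brackets) past an adjusted p of 0.05, higher with SpABE to the right and lower to the left, and dashed lines give the shares of all tested genes, 17.7% and 17.8%. The heat-shock bar reaches 100% to the right and the interferon bar 88.5% to the left.

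Further genes with wide gaps at 5 CPM or more, on the mean of the 6 libraries, came from unrelated families. Higher with SpABE was FOXJ1, the regulator of motile cilia, at 15.4, 17.4 and 16.4 CPM against 4.30, 3.62 and 4.24 CPM (2.02 ± 0.07). TXNIP, which binds thioredoxin and limits glucose uptake, was at 108.3, 101.2 and 98.3 CPM against 39.7, 37.6 and 38.6 CPM (1.41 ± 0.04). INHBA, the subunit of activin A (1.83), CYP4F3, a fatty acid hydroxylase (1.76), and ANKRD1, an ankyrin repeat protein induced by YAP (1.44), completed this group.

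Lower with SpABE was PLAT, the tissue plasminogen activator, at 14.3, 14.0 and 14.9 CPM against 29.6, 31.3 and 31.3 CPM (-1.10 ± 0.06). UAP1L1, at 27.1 against 54.3 CPM on average, ZNF467 (-1.01) and the readthrough gene ANKHD1-EIF4EBP3 (-1.20), which overlaps its component genes, were also lower. The rule that chose these 9 genes required groups without overlap.

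The same editors were also used with guides against a splice site of NRF1 exon 7, which allowed the comparison to be made in 6 libraries that the intergenic comparison did not use. There the guides of SpABE and SpCBE differ from each other and both act on NRF1, so the editor was not the only difference. By the same rule 1270 genes were called (7.16%), 544 higher (3.07%) and 726 lower (4.09%). Of the 1098 genes called with the intergenic guide, 998 (90.9%) had the same sign, against 71.1% of all tested genes. Called in the same direction in both were 518 genes, 47.2% of the intergenic and 40.8% of the NRF1-guide calls, and 6 were called in opposite directions. Over the 1844 genes called in either, Pearson's r of the log2 fold changes was 0.67 and Spearman's rho 0.66, and over all 17743 tested genes they were 0.516 and 0.535, a description across genes, which are not independent replicates.

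The interferon list was again lower with SpABE under the NRF1 guides, with 23 of 26 genes lower where 19% of all tested genes were, 20 called and a median of -1.51, and none of the 26 passed the test of the difference between guides, which 8.96% of all tested genes passed. The heat-shock list was higher in 24 of 25 genes, where 16.5% of all were, with a median of 0.66 and 14 called, and 13 of its genes passed the test of the difference. The HSPA1A and HSPA1B sum was 9688 ± 345 CPM with SpABE and 2814 ± 208 CPM with SpCBE (SD, n = 3), 3.44-fold, again with an exact permutation p of 0.1.

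**Figure D4:**
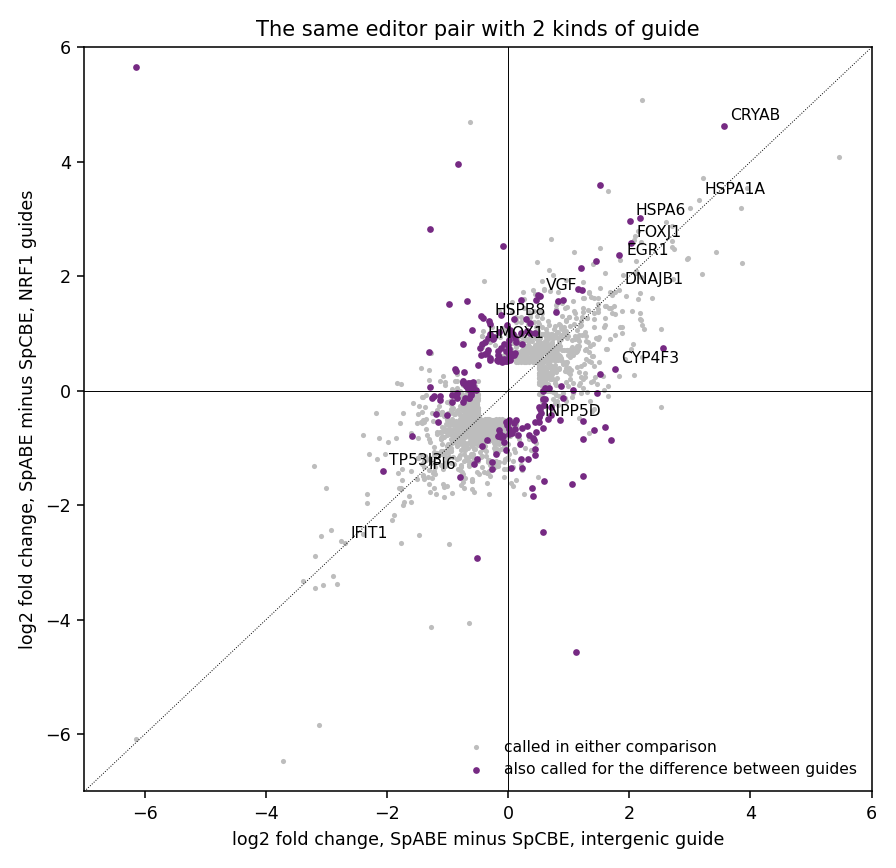
Each point is a gene called in either comparison, with its log2 fold change (SpABE minus SpCBE) under the intergenic guide on the horizontal axis and under the NRF1 guides on the vertical axis. Most points lie in the lower left and upper right, the dotted line marks equal values, and purple points are genes whose difference between guides was itself called.

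The difference between guides, tested as an interaction, was called for 253 genes (1.43%). Among immediate-early genes, 18 of 31 passed the test of the difference on the adjusted p, which 8.96% of all tested genes passed. With the NRF1 guides 23 of 31 were higher with SpABE and none lower, where 16.5% and 19% of all tested genes were. FOS reached 2.14 against 1.20. Of the G1/S genes, 24 of 35 passed. MCM5 changed sign, 0.32 with the intergenic guide and -0.27 with the NRF1 guides. HSPB8 (-0.33 and 1.22) and HMOX1, the heme oxygenase of oxidative stress (-0.43 and 0.82), were also lower with SpABE under the intergenic guide and higher under the NRF1 guides. NRF1 itself, under the intergenic guide, was at 26.7, 28.8 and 28.5 CPM with SpABE and 24.4, 25 and 26.0 CPM with SpCBE (0.16, adjusted p = 0.0335).

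**Figure D5:**
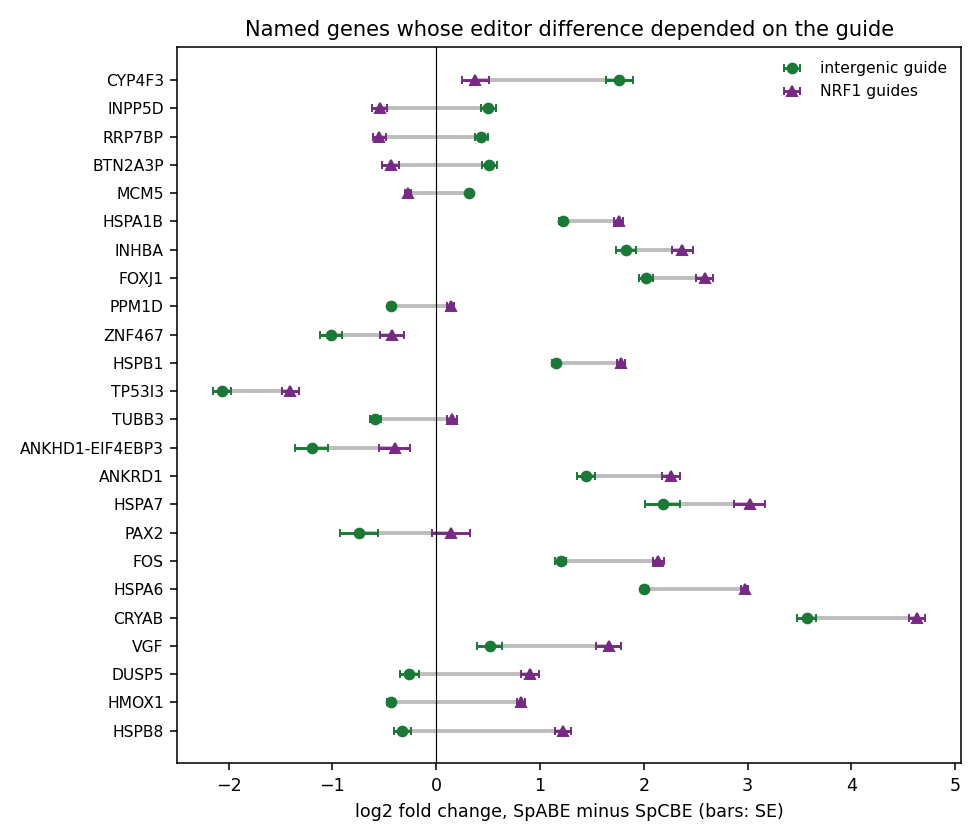
Log2 fold changes (SpABE minus SpCBE) with SE bars for the 24 named genes whose difference between guides was called, circles for the intergenic and triangles for the NRF1 guides. CRYAB, HSPA6, HSPB1 and FOS lie further right with the NRF1 guides, and HMOX1, HSPB8, MCM5 and INPP5D lie on opposite sides of 0.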

How the data were processed

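Polyadenylated RNA of HEK293T cells was sequenced from 18 libraries prepared with strand information. Trimming with Cutadapt 1.18 and mapping to hg38 (GENCODE 30) with STAR 2.7.0f were done by the authors. How reads were counted, by strand or with several matches, is not given in the sources used here, so copies and overlapping or antisense genes are uncertain. The deposited table held unnormalized estimated counts, and 19.63% of its nonzero values were not whole. They were rounded, although whole counts had been planned for. Of 36 columns, 18 belonged to other samples and were not used. No counts stood on lines without a gene.

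Genes were filtered by filterByExpr, leaving 17743, scaled by TMM and fitted in edgeR 4.0.16 (R 4.3.3) with 6 group means over 18 libraries, 12 residual degrees of freedom and a biological coefficient of variation of 3.1%. The quasi-likelihood test compared SpABE with SpCBE under each guide and the difference between guides. Levels are TMM-scaled CPM. On simulated counts for the intergenic comparison over 17743 genes, the changed genes were drawn from those at 1 CPM or more. Of these, 94% of 100 genes changed 2-fold and 99% of 100 changed 4-fold were called. Recovery under 1 CPM was not measured. Precision is limited by 3 libraries per group and by depth, 31680000 to 40690000 counts.

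Named genes were the 12 largest rises and falls among called genes with a mean of 5 CPM or more, a symbol and no overlap, up to 4 members of each list by p, genes within 1 Mb of the site or with an exonic near match, and the 4 largest rises and falls of the other comparisons. Further list members, among them HSPA8, HSPH1, BAG3, OAS3, BRCA1 and DUSP1, were named after their values were seen. Results for some genes that the rule chose are not reported here. The groups, gene lists and comparison were chosen with earlier results of these data known. Alternatives used DESeq2 1.42.0, limma 3.58.1 voom, other scalings and filters, and left out each library. Positions came from GENCODE 44.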

Additional observations from a re-analysis of the deposited data

Results flagged for a closer look

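The difference between SpABE and SpCBE was itself different under the intergenic and the NRF1 guides for 253 genes (edgeR interaction test). The values below are the log2 fold change under the intergenic guide minus that under the NRF1 guides, for the genes named by rule. Of the 25 listed heat-shock genes, 13 passed this test on the adjusted p, where 8.96% of all tested genes did. DNAJB1 (0.07, adjusted p = 0.237) and HSPA1A (-0.19, adjusted p = 0.371) did not pass. Further apart with the NRF1 guides were CRYAB (-1.06), HSPA6 (-0.97), HSPB1 (-0.63), HSPA1B (-0.53), whose split from HSPA1A is uncertain, and HSPA7 (-0.84), a near-identical copy of HSPA6. So were FOS (-0.94), ANKRD1 (-0.82), FOXJ1 (-0.57), INHBA (-0.54) and VGF (-1.14). HMOX1 (-1.25), HSPB8 (-1.55), DUSP5 (-1.16), PPM1D (-0.57) and TUBB3 (-0.74) were lower with SpABE under the intergenic guide and higher under the NRF1 guides. PAX2 (-0.89), a marker of the line at under 3 CPM, was lower under the intergenic guide and did not pass under the NRF1 guides (0.15, adjusted p = 0.582). TP53I3 (-0.66), ANKHD1-EIF4EBP3 (-0.80) and ZNF467 (-0.59) were lower with SpABE under both, more so with the intergenic guide. Going the other way were CYP4F3 (1.39), MCM5 (0.59), INPP5D (1.05), RRP7BP (0.98) and BTN2A3P (0.95). The guides against NRF1 differ between the editors, so editor, guide sequence and NRF1 editing cannot be told apart in these differences.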

How the results depend on the processing

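The 1098 calls under the intergenic guide were 865 with a filter of at least 1 CPM in 3 libraries, 899 with DESeq2, 1159 with voom and 1211 without a filter, and all stayed within 1.5 times. A test against the fold threshold itself (glmTreat) called 201, and for the NRF1 guides 286 and for the difference between guides 23. The adjusted p alone gave 6294, 6299 and 1590. With glmTreat 52.2% of the intergenic calls were higher with SpABE, against 43% by the rule used. Leaving out 1 library gave 938 to 1063 intergenic calls, 1115 to 1168 for the NRF1 guides and 198 to 245 for the difference. No clear pairing of the libraries by replicate number was seen, though 3 libraries per group cannot exclude one. Correlations of same-numbered deviations were 0.00611, -0.388 and 0.192 for the intergenic and -0.109, -0.00865 and 0.119 for the NRF1 guides, and of the 6 pairs only the NRF1-guide pair of replicate 3 correlated best with each other. With the replicate block 1091, 1262 and 258 genes were called.

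Signs reversed for 3 genes that were not called. Leaving out 1 library moved KDELC1 between -0.006031 and 0.08249, BIVM-ERCC5 between -7.768 and 0.3915, and HOXB8 between -0.009989 and 0.07224, with HOXB8 at -0.00995 without SpABE replicate 1. The cause was not tested. Of the other gene values under alternatives, 3058 kept direction and call, 15 became called and 4 ceased to be, for CXCL8 and BIRC3. Of the medians of gene lists, 530 stayed within the spread between libraries and 28 did not, among them the integrated stress response, 0.11 without SpCBE replicate 2, and endogenous deaminases, -0.03 with the 1 CPM filter. Depth limits the genes under 1 CPM most.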
